A study of Homo sapiens with 6 samples.

Results

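The HOX genes were followed through 72 h of decitabine in SUM159 cells, a human triple-negative breast carcinoma line. Members were taken by gene symbol: every array feature whose platform annotation gave a HOX gene as its single symbol, with the feature of the highest mean over the arrays standing for its gene. Of the 39 HOX genes, 27 had such a feature, among 14884 named genes in all. The B cluster was complete with 10 genes and the D cluster with 9, the C cluster had 7 of 9 (all but HOXC5 and HOXC6), and the A cluster was represented by HOXA2 alone. The other 12 were not analysed here, so nothing is said of the A cluster as a whole. Total RNA was hybridised to 6 single-colour arrays, 3 from cells in 1 µM decitabine for 72 h (1 drug dose, medium changed daily) and 3 from cells kept for 72 h in medium labelled NT, the untreated group. Whether that medium carried the drug's solvent is not stated, and both groups are the same line, with no genetic change named. The sample titles of both groups include 1 µM, and the label NT was read as no drug.

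HOX genes encode transcription factors with a DNA-binding homeodomain, and they lie in 4 clusters (A, B, C and D) in which order along the chromosome follows the order of expression along the body axis. Genes at the same place in different clusters descend from a common ancestor and share a paralogue number, from 1 at the head end to 13 at the tail and limb end. Polycomb complexes hold the clusters silent and trithorax complexes keep them active, and CpG-rich HOX promoters are often methylated in cultured and tumour cells. Decitabine is built into DNA in place of deoxycytidine and traps DNA methyltransferases, which lowers methylation as cells divide.

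Of the measured HOX genes 1 passed the test, HOXD13, the gene at the tail end of the D cluster, which acts in the digits and the genital tubercle of the embryo. Because HOXD13 is the result the data turn on, the 250 bases before its RefSeq start site (GRCh38.p14) are shown with those of the next 3 genes along the cluster, HOXD12, HOXD11 and HOXD10, none of which passed the test. All are given 5′ to 3′ on the transcribed strand, and capitals mark CG dinucleotides, the sites of DNA methylation. Methylation itself was not measured.
HOXD13, chr2:176092471-176092720, plus strand: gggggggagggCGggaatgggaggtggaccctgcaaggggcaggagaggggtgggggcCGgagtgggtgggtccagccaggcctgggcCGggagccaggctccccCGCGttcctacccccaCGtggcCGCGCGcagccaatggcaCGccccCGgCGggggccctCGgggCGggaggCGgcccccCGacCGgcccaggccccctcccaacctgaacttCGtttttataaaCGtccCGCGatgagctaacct
HOXD12, chr2:176099545-176099794, plus strand: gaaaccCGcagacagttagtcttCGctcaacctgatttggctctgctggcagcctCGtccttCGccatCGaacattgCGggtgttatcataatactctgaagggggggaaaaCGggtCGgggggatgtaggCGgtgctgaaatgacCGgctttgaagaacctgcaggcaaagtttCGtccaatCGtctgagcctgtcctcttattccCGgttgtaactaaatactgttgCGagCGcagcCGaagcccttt
HOXD11, chr2:176107030-176107279, plus strand: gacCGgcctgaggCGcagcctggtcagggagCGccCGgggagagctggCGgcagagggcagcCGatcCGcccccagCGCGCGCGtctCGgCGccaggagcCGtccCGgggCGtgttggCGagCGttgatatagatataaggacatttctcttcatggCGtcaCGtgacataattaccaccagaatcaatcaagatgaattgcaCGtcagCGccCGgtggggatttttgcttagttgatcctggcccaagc
HOXD10, chr2:176116528-176116777, plus strand: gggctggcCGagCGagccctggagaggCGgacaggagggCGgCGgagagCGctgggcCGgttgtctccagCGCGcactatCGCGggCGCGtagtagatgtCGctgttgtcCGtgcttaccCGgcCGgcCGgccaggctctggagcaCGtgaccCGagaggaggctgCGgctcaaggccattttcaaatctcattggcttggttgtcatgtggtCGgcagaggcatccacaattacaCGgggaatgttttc

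CG was counted as those letters on the strand shown, which is the count on both strands because the pair is its own complement. The HOXD13 window held 21, more than 69.8% of the 35116 RefSeq promoter windows of the same length, and the windows of HOXD12, HOXD11 and HOXD10 held 16, 23 and 23. Their CG count over that expected from base composition was 0.618 for HOXD13 and 0.907, 0.976 and 0.923 for the neighbours. The letters TATAAA, searched on the transcribed strand, began at position -27 from the HOXD13 start and occurred in 6.8% of all windows, and in none of the other 10 HOX windows at hand. Windows could be matched for 11 of the 27 members, and their CG counts ran from 4 (HOXD4) to 31 (HOXD1), against a median of 11 over all windows. These counts describe the letters and were not tested against the changes in expression.

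HOXD13 stood at 1.91, 1.80 and 1.59 on the 3 untreated arrays and at 4.70, 3.93 and 3.57 after decitabine (deposited log2 values, replicates 1 to 3). The groups did not overlap, and the lowest decitabine value was above the highest untreated value. Every untreated value lay below its own array's median over all features (2.29 to 3.03) and every decitabine value above it (2.37 to 2.98). The untreated mean was 1.77 ± 0.16 and the decitabine mean 4.07 ± 0.58 (SD, n = 3 in each). The change was 2.30 on the log2 scale (SE 0.30, 95% interval 1.597 to 3.003), which is 4.92-fold, and its adjusted p over all genes was 0.00809 by limma. By size of rise HOXD13 was number 67 of the 14884 genes. Its change was 2.79, 2.13 and 1.98 in the 3 pairs of arrays that share a replicate number. It stayed past the threshold when any single array was left out (change 1.98 to 2.55, adjusted p 0.0107 to 0.0453), with the replicate number as a block (0.00221), and without the pair of replicate 1 (2.06, 0.0175). Background signal was not measured, so the size of a rise from a dim level holds for the deposited values. In bulk RNA, more cells with the transcript and more transcript in each cell cannot be told apart.

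**Figure D1:**
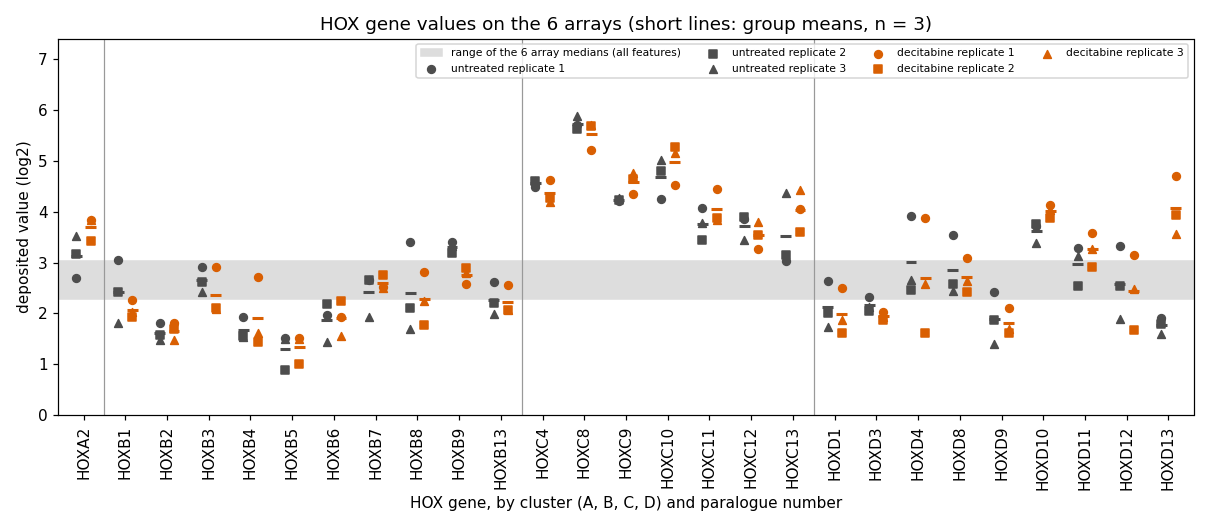
Deposited log2 value (vertical axis) of each of the 27 measured HOX genes (horizontal axis, by cluster and paralogue number) on the 3 untreated arrays (grey) and 3 decitabine arrays (orange), with marker shape giving the replicate, short lines the group means, and the grey band the range of the 6 array medians over all features (2.29 to 3.03). HOXD13 is below the band in untreated cells and above it after decitabine; heights of different genes come from different array features and are no order of expression.

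The other 26 members did not pass the test. Over the 27, 1 was called higher and 0 lower by limma, beside 2.01% and 1.02% of all genes tested. With the replicate block it was again 1 (HOXD13) and 0, beside 7.79% and 5.37%. At an unadjusted p under 0.05 without the block the count was 2, HOXD13 and, on the lower side, HOXB9, beside 13.9% of all genes. The median change over the 27 was -0.03, and over all genes -0.02, on the log2 scale. A change of at least 0.5 in size was seen for 4 of the 27 (HOXA2, HOXB9, HOXC13 and HOXD13), beside 18.2% of all genes. The 95% interval of HOXD13 began at 1.597, above the upper limit of each of the other 26, the highest of which was 1.41 for HOXC13. For these 26 the data set limits rather than show equality: HOXC13, for example, had an interval from -0.39 to 1.41. With the replicate block it ran from 0.0244 to 0.9956. Under the block the intervals of HOXA2, HOXC9, HOXC13 and HOXD10 lay above 0 and that of HOXB9 below it. Their limma adjusted p-values were 0.0644 to 0.1594, so none passed. The share of all genes with such intervals was not counted, so they are no result about the HOX genes as a group.

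**Figure D2:**
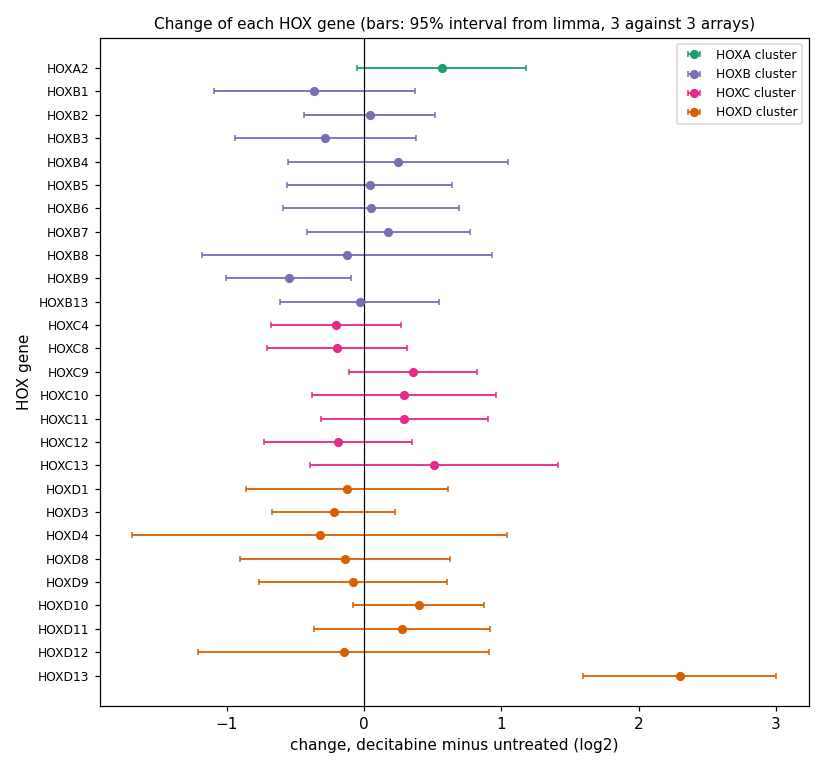
Change of each HOX gene, decitabine minus untreated, on the log2 scale (horizontal axis), with bars for the 95% interval from limma over 3 against 3 arrays and colours for the 4 clusters. HOXD13 lies at 2.30 with an interval of 1.597 to 3.003, and no interval of another member reaches 1.597.

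In the D cluster none of the 8 other genes passed the limma test, with or without the block. Without the block none had an unadjusted p under 0.05 either, and with it HOXD10 did (0.0381). How many of all genes did so with the block was not counted. HOXD12, the next gene, stood at 3.33, 2.53 and 1.89 untreated and at 3.15, 1.67 and 2.48 after decitabine, so the groups overlapped throughout, and its change was -0.15 (95% interval -1.21 to 0.91). HOXD11 changed by 0.28 (-0.36 to 0.92). HOXD10, a gene of the spinal cord and limb, was at 3.71, 3.76 and 3.38 untreated and 4.13, 3.87 and 4.04 treated. All 3 treated values of HOXD10 were above all 3 untreated ones, but its change of 0.40 (SE 0.21, limma adjusted p = 0.492, and 0.149 with the block) missed the threshold.

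The remaining D genes had changes below 0. HOXD9 changed by -0.08, HOXD8 by -0.14 and HOXD1 by -0.13. HOXD3 was at 2.33, 2.04 and 2.12 untreated and 2.03, 1.87 and 1.92 treated, with each treated value below each untreated one and a change of -0.22 (SE 0.19, adjusted p = 0.827). HOXD4 was the 1 member with a second feature: the feature used gave -0.32 and the other -0.06, and in the pair of replicate 3 they had opposite signs (-0.08 and 0.34). HOXD3 and HOXD4 overlap in RefSeq, and whether their features share sequence was not examined, so both values are uncertain. Without HOXD13 the median of the 8 other D genes was -0.13.

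In the C cluster all 7 measured genes were above the array median on all 6 arrays, and none passed the limma test, with or without the block. At an unadjusted p under 0.05 the count was 0 without the block, while with it HOXC9 (0.03853) and HOXC13 (0.04235) were under that level. The share of all genes under that level with the block was not counted, so this is no result about the cluster. HOXC8, which acts in the thoracic spine and brachial motor neurons, was at 5.70, 5.62 and 5.88 untreated and 5.21, 5.69 and 5.71 treated, a change of -0.20 (SE 0.22) with overlapping groups. HOXC13, a regulator of hair keratins, had the largest change of the cluster. It was at 3.04, 3.14 and 4.37 untreated and 4.05, 3.60 and 4.43 treated. Its untreated value in replicate 3 exceeded 2 of the 3 treated values, and the change of 0.51 (SE 0.39, adjusted p = 0.760) ran from 1.01 in pair 1 to 0.06 in pair 3.

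HOXC9 was tightly grouped before treatment, at 4.21, 4.23 and 4.27, and stood at 4.35, 4.65 and 4.77 after it. Its groups did not overlap, yet the change of 0.35 (SE 0.20, adjusted p = 0.557) missed the threshold. HOXC10 and HOXC11 both changed by 0.29. HOXC4, which overlaps HOXC5 and HOXC6, changed by -0.21, and HOXC12 by -0.19. The cluster's median change was 0.29, and 0.14, 0.42 and 0.07 in the 3 pairs.

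The B cluster was dim in both groups: none of its 10 features was above the array median on all 6 arrays and 5 were below it on all 6. HOXB9, a gene of the posterior thorax and the mammary gland, was at 3.40, 3.19 and 3.33 untreated and 2.58, 2.90 and 2.79 treated. Its groups did not overlap, and it had the lowest change of the 27, -0.55 (SE 0.20, 95% interval -1.01 to -0.09), with an adjusted p of 0.242, or 0.0644 with the block. An added setting, the block on median-centred arrays, took it past the threshold (0.0483). The rest changed by -0.36 (HOXB1), 0.04 (HOXB2), -0.28 (HOXB3), 0.25 (HOXB4), 0.04 (HOXB5), 0.05 (HOXB6), 0.18 (HOXB7), -0.12 (HOXB8) and -0.03 (HOXB13), with adjusted p-values of 0.829 or more. The spread of HOXB8 shows what such features allow: its untreated values were 3.40, 2.11 and 1.69, and the interval of its change was -1.18 to 0.93.

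HOXA2, which patterns the second branchial arch and was the single A gene measured, was at 2.70, 3.17 and 3.53 untreated and 3.83, 3.42 and 3.84 treated. The treated value of replicate 2 lay below the untreated value of replicate 3, so the groups overlapped. Its change was 0.56 (SE 0.27, adjusted p = 0.423, and 0.133 with the block). It was 1.13 in pair 1 and 0.25 and 0.31 in the others, and 0.28 without the pair of replicate 1.

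By paralogue number, changes upward in every pair were counted for the anterior, central and posterior groups. Of the 12 measured genes of groups 9 to 13, 7 were higher in all 3 pairs (HOXC9, HOXC10, HOXC11, HOXC13, HOXD10, HOXD11 and HOXD13) and 1 was lower in all 3 (HOXB9). Of the 9 genes of groups 4 to 8, 0 were higher and 1 was lower in all 3 pairs, and of the 6 genes of groups 1 to 3 there was 1 of each. Over all genes 22.9% were higher in all 3 pairs and 21.8% lower, and over the 27 the counts were 8 and 3. Median changes were 0.28 for groups 9 to 13, -0.12 for groups 4 to 8 and -0.18 for groups 1 to 3. Changes above and below 0 numbered 7 and 5, 4 and 5, and 2 and 4, in that order. Without HOXD13 the posterior median was again 0.28, with 6 changes above 0 and 5 below. The posterior medians in the 3 pairs were then only 0.14, 0.11 and 0.14. The division by paralogue number was made with the values in view and carries no test. It also follows the clusters, since no C gene of groups 1 to 3 exists in the genome and the B cluster supplied only 2 of the 12 posterior genes.

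Within group 13 the 3 measured paralogues differed: HOXD13 changed by 2.30, HOXC13 by 0.51 and HOXB13 by -0.03. Both genes of group 10 and both of group 11 were higher in every pair, by 0.28 to 0.40 on average. Both genes of group 12 changed by -0.15 to -0.19, with opposite signs among their pairs. Fully separate groups, all 3 treated values on 1 side of all 3 untreated ones, were seen upward in 3 of the 27 members (HOXC9, HOXD10, HOXD13; 11.3% of all genes) and downward in 2 (HOXB9, HOXD3; 8.74%).

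**Figure D3:**
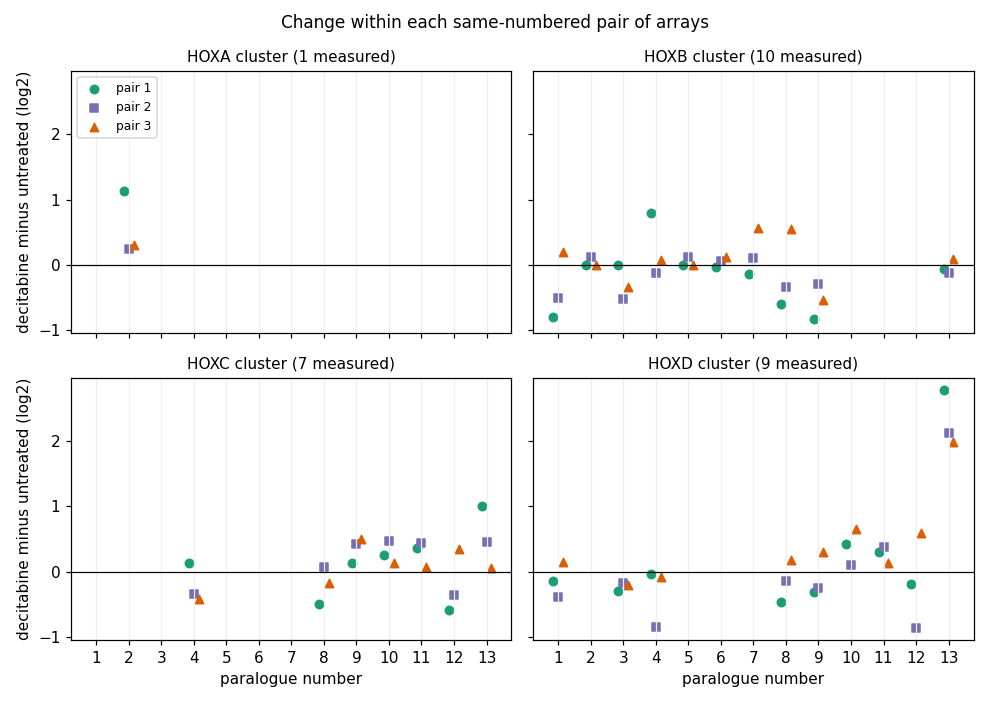
Decitabine minus untreated on the log2 scale (vertical axis) within each of the 3 same-numbered pairs of arrays, by paralogue number (horizontal axis), with 1 panel for each cluster. HOXD13 is at 2.79, 2.13 and 1.98, and in the C and D panels numbers 10 and 11 lie above 0 in every pair.

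The arrays of replicate 1 stood apart in both groups, with medians of 3.03 and 2.98 against 2.29 to 2.42. In 13 of the 27 members (48.1%, beside 35.8% of all genes) both replicate 1 values were above the other 4; 1 of these, HOXC11, was in the C cluster, and HOXD13 was not among them. The part of replicate 1 in the members' changes was not tested beyond the values given without that pair. As a check of the line, 5 of 7 mesenchymal and basal markers listed as high were measured, with untreated means of 6.33 (ZEB1) to 10.75 (FN1). Their median change was -0.51: AXL, a receptor tyrosine kinase, fell by 1.79 (SE 0.19, limma adjusted p = 0.00361), ZEB1 changed by -0.51 (0.480, and 0.0438 with the block), VIM by -0.55, CD44 by 0.27 and FN1 by 0.19. Of 7 luminal and receptor markers listed as low 5 were measured, with untreated means of 1.91 (PGR) to 5.65 (GATA3), and none passed without the block (0 also at an unadjusted p under 0.05). GATA3 was not low on these arrays: its untreated values of 5.72, 5.74 and 5.49 were above the 75th percentiles of all features (4.42, 4.04 and 4.11). KRT19 changed by 0.63 (adjusted p = 0.548, and 0.0380 with the block). The part of these shifts in the HOX changes was not tested. Markers of endothelium, liver and pluripotent cells (6 measured of 7) had untreated means of 0.95 (NANOG) to 2.80 (VWF). No member was past the limma threshold. Without the block 0 had an unadjusted p under 0.05, and with it PECAM1 did (0.04509), the share of all genes under the block not being counted. Markers of blood were not analysed here.

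RNAs made inside the clusters were followed as well. Of 21 listed noncoding genes (1 of them, PRAC1, codes for a small protein), 11 were measured, and 0 passed the limma test with or without the block. At an unadjusted p under 0.05 without the block the count was 0 as well. HOTAIR, a long noncoding RNA of the C cluster, was at 1.98, 1.95 and 2.69 untreated and 2.48, 2.81 and 2.75 treated, a change of 0.47 (SE 0.26, adjusted p = 0.526). With the block its unadjusted limma p was 0.038. Those of PRAC1 and FLJ12825, both with changes below 0, were 0.03925 and 0.038. The share of all genes with such p-values under the block was not counted. HAGLR, from the D cluster, changed by 0.11 and HOTTIP, beside HOXA13, by -0.16. HOXC13-AS, antisense to HOXC13, changed by 0.14.

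Of the microRNA genes of the clusters, 5 of 8 were measured and 0 passed the limma test with or without the block, or at an unadjusted p under 0.05. The miR-196 genes are shown because they lie in 3 clusters, share a seed, and are known to act on HOX messages such as that of HOXB8. Capitals mark the seed, bases 2 to 8 (RefSeq, GRCh38.p14).
hsa-miR-196a-5p: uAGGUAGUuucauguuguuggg
hsa-miR-196b-5p: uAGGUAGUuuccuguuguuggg

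The features of MIR196A1, MIR196A2 and MIR196B, whose products carry these sequences, changed by 0.04, 0.04 and 0.36. MIR196B, in the A cluster, was at 4.05, 4.54 and 4.89 untreated and 5.06, 4.73 and 4.77 treated, so its groups overlapped, and the change was 1.01 in pair 1 but -0.12 in pair 3. MIR10B changed by -0.13 and MIR615 by -0.21. The array annotation names the gene, and whether a feature reads the precursor or the mature form was not determined.

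HOX proteins bind DNA with the TALE homeodomain cofactors PBX, MEIS and PKNOX. Of 9 such genes 7 were measured, and none passed the limma test without the block (2 at an unadjusted p under 0.05, beside 13.9% of all genes). With the replicate block 2 were higher and 1 lower, beside 7.79% and 5.37% of all genes. PKNOX1, named with its values in view, was at 5.79, 5.49 and 5.81 untreated and 6.80, 6.60 and 6.36 treated, with a change of 0.89 (SE 0.22, adjusted p = 0.0752, and 0.0187 with the block). Under the block PBX3 (0.63, adjusted p = 0.0250) and PBX2 (-0.56, 0.0488) passed too, in opposite directions, while MEIS1 changed by 0.22 and MEIS2 by 0.24.

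Of the Polycomb genes 23 of 30 were measured. By limma none passed without the block (7 at an unadjusted p under 0.05, beside 13.9% of all genes), and with it 4 were higher and 3 lower, beside 7.79% and 5.37%. The core enzyme EZH2 changed by 0.23 (SE 0.20) and its partner SUZ12 by 0.37 (SE 0.19), neither past the threshold in either fit. Those that passed under the block, named with their values in view, were RBBP4 (0.84), MTF2 (0.84), PCGF6 (0.67) and KDM2B (0.58) on the higher side and EZH1 (-0.84), PHC1 (-0.90) and PHC2 (-0.85) on the lower, with adjusted p-values of 0.0108 to 0.0343. The list's median change was 0.02.

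Of the trithorax genes 9 of 16 were measured and none passed by limma without the block (2 at an unadjusted p under 0.05, beside 13.9% of all genes). With the block 1 was lower, the demethylase KDM6B (-0.92, adjusted p = 0.0326), and 0 higher, beside 5.37% and 7.79% of all genes. The 4 of 16 retinoid and CDX genes and the 8 measured genes of CTCF and cohesin had none past the threshold in either limma fit, and 0 at an unadjusted p under 0.05. CTCF, which insulates domains within the clusters, changed by -0.16.

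Genes that flank the clusters, 19 of 27 measured, had 2 lower and none higher, beside 1.02% and 2.01% of all genes. With the block 3 were lower, beside 5.37%, the third being HNRNPA1 (-0.71, adjusted p = 0.134, and 0.0215 with the block). NFE2L1, a stress-responsive transcription factor near the B cluster, fell by 1.32 on the log2 scale (SE 0.24, limma adjusted p = 0.0295), from 7.64, 8.16 and 8.40 to 6.67, 6.74 and 6.84. HIBADH, an enzyme of valine breakdown near the A cluster, fell by 1.02 (SE 0.20, adjusted p = 0.0348), from 8.82, 9.03 and 8.95 to 8.08, 7.88 and 7.79. Beside the D cluster neither neighbour of HOXD13's flank passed: EVX2 changed by -0.25 (SE 0.37) and LNPK by 0.20 (SE 0.25).

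Homeobox genes outside the clusters were followed for comparison. Of 58 listed genes of the same ANTP class, such as the DLX, EMX, MSX and NKX families, 56 were measured and none passed the limma test (5 at an unadjusted p under 0.05, beside 13.9% of all genes). Their changes ran from -0.96 (EMX2) to 0.63 (DLX2), with a median of -0.15. With the block DLX2 was higher (adjusted p = 0.0310) and EMX2 (0.0109) and LBX1 (-0.75, 0.0183) were lower, beside 7.79% and 5.37% of all genes. Whether this list and the HOX genes differ was not tested.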

How the data were processed

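Total RNA of 6 samples (3 untreated, 3 decitabine) was measured on arrays. Per the submitters' processing notes, the authors used the Transcriptome Analysis Console. How it normalized the arrays is not given in the sources used here, nor are its version and the build. They were read as log2 values from their range and 2 decimals, the base being unstated, per the deposited table. No further normalization was applied, and array medians differed. Features were named by the platform annotation, with symbols updated through RefSeq (GRCh38.p14): 16098 of 48226 had 1 symbol and 32128 no name here. All 16098 matched RefSeq. Whether the unnamed features carry several symbols on the platform was not determined. They gave 14884 genes.

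limma 3.58.1 in R 4.3.3 (lmFit, eBayes, no covariate, two-sided, Benjamini-Hochberg over 14884 genes, threshold 0.05) was fitted to all 6 arrays and tested on simulated data. The labels do not call the replicates separate cultures: p-values measure only spread between these samples, perhaps technical, and the number of arrays limits precision. Deviations from group means correlated at 0.682, 0.595 and 0.558 between same-numbered arrays and at -0.483 to -0.0062 otherwise. Deviations cancel within a group, so positive values for same numbers force negative ones elsewhere, which are no separate evidence. From the positive values, the replicate numbers of the titles were taken to pair the samples. The labels state no block, so the main fit had none, and the replicate block was kept as an alternative.

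Members and gene lists were chosen with earlier results of these data known. Values on all 6 arrays are given, by rule, for HOX members past the threshold and, in each cluster, for those with the highest untreated mean or the largest change, and for other members named with values in view. From the other lists, genes past the threshold are named, others with values in view. Alternatives were quantile normalization, median centring, the dimmer 50% of genes left out, the mean of all features of a gene, the replicate block, a variance trend, and each array or the pair of replicate 1 left out.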

Additional observations from a re-analysis of the deposited data

How the results depend on the processing

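HOXD13 was past the threshold in every setting that tested it, with changes of 1.98 to 2.55. Leaving out the dimmer 50% of genes removed 19 of the 27 members, HOXD13 among them, so 0 of the other 8 were then called higher, the median of the 8 was 0.29 and the 1 D gene kept stood at 0.40. With the replicate block on median-centred arrays, a setting added after the data were seen, 1 member (HOXB9) was lower, and 2145 genes were called in all. Against 451 genes in all, 938 were called with quantile normalization, 989 without the dimmer genes, 1162 with a variance trend and 1959 with the replicate block. The block changed no HOX call. With single arrays left out, genes called ranged from 130 to 477, the median change of the 27 from -0.16 to 0.15, that of the B cluster from -0.17 to 0.14, of the C cluster from 0.075 to 0.30 and of the D cluster from -0.32 to 0.21. The medians over all members, the B genes and the D genes therefore have no settled sign. The median change of all genes was 0.12 without untreated replicate 1 and -0.14 without decitabine replicate 1. The C cluster median was lowest, 0.075, without untreated replicate 1. Whether the members' shifts follow those of all genes was not tested. Signal over background was not available.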

Other observations

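Same-numbered arrays held identical deposited values at 6.44%, 7.94% and 8.28% of all features, against 0.42% to 1.02% for other pairs of arrays. Among the HOX genes, HOXB2, HOXB3 and HOXB5 were identical to 2 decimals between the untreated and decitabine arrays of replicate 1, and HOXB2 and HOXB5 between those of replicate 3. HOXB2 was at 1.81 on both arrays of replicate 1 and 1.48 on both of replicate 3, and HOXB5 at 1.51 and 1.50. All 3 genes are dim here, and the reason for the identical values was not tested.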
